A study of Mus musculus with 13 samples.

Results

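The Pi16/Dmkn cells are 373 of the 12441 single cells profiled from uninjured mouse muscle, 223 of 6144 in library 1 and 150 of 6297 in library 2. They were picked by their own transcripts. A cell belonged to the group when it held UMIs (unique molecular identifiers, 1 per captured transcript) of at least 2 of the type genes Pi16, Dmkn, Sbsn and Efemp1 and of at most 2 of the genes Smoc2, Cxcl14, Lum, Podn and Col15a1. It also had at most 2 UMIs in all of the tendon genes Tnmd, Fmod and Thbs4, and none of the leukocyte gene Ptprc. All values that compare these cells with others are therefore descriptions of the chosen cells, and none carries a test.

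Fibro-adipogenic progenitors (FAPs) are the resident connective tissue cells of skeletal muscle. They lay down matrix, support muscle stem cells during repair, and can turn into fat or scar-forming cells. They carry the receptor Pdgfra and the surface proteins Sca1 (Ly6a) and Cd34. Fibroblasts that express Pi16 and Dpp4 are known from the outer layer of vessels and from fascia of many organs, where they are often described as a reserve for other fibroblasts. FAPs with Smoc2 and Cxcl14 are known as a population of the tissue between the fibres.

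Both single-cell libraries came from mononuclear cells of hindlimb muscle of C57BL/6 wild-type mice, 2 months old and uninjured, loaded on a droplet platform that reads the 3′ ends of transcripts. The series also holds 11 bulk RNA-seq libraries of sorted cells from wild-type C57BL/6 mice of the same age. These are smooth-muscle/mesenchymal-like cells (SMMC, sorted as negative for CD31, CD45, Sca1 and Vcam1 and positive for ITGA7), either fresh, after 3 days of culture or after differentiation in culture (n = 3 each), and fresh muscle stem cells (MuSC, Vcam1-positive in the same sort, n = 2). The labels do not say whether replicate libraries came from separate mice, so the spread between them may be technical.

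Library 1 held 19353328 UMIs and library 2 15507938. Every cell had at least 499 detected genes. The median Pi16/Dmkn cell had 5900 UMIs in library 1 and 4466 in library 2, against 2469 and 1995 in all other cells. The libraries had 53 cell barcodes in common, and none of these was a Pi16/Dmkn cell in both. Scrublet, a doublet caller, marked 0.846% of the cells of library 1 and 0.0635% of library 2, so it did not work in library 2. It marked 1 Pi16/Dmkn cell in library 1 and 0 in library 2, and no cell was removed.

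The group made up 3.63% of the cells in library 1 (exact 95% interval 3.18% to 4.13%) and 2.38% in library 2 (2.02% to 2.79%). These intervals, like all intervals given here, cover counting error only. The share in library 1 was above the interval of library 2. Depth bore on these shares: when each cell was thinned to 1000 UMIs and the rule was applied again, they were 2.89% and 1.49% of the cells with at least that many. Nearly all members held Pi16, which encodes a secreted or membrane-anchored peptidase inhibitor. It was detected in 217 of 223 members in library 1 and 147 of 150 in library 2. Efemp1, encoding the matrix protein fibulin-3, was detected in 93.7% and 82.7%. Sbsn, which encodes suprabasin, a secreted protein best known from the outer layers of the epidermis, was detected in 66.4% and 56.7%. Dmkn, encoding dermokine, another secreted epidermal protein, was the least often detected at 40.4% and 24.7%. Most members held 1 of 3 combinations. All 4 genes together were found in 78 cells of library 1 and 27 of library 2, Pi16 with Efemp1 alone in 67 and 61 cells, and Pi16 with Sbsn and Efemp1 in 53 and 33 cells. Endothelial cells, which should lack these genes, were taken as a guide to the background of free RNA. In library 2 a single endothelial cell held 67 of the 167 Pi16 UMIs of this class. Whether the class holds mixed cells was not tested. With a median of 1952 and 1662 UMIs, 2.1% and 4.42% of endothelial cells held a Pi16 UMI, and 0.29% and 0.177% a Dmkn UMI.

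Levels of the type genes are given as CPM, the UMIs of a gene scaled to 1000000 UMIs in all over the summed cells of a group in a library. Pi16 stood at 4500 CPM in the Pi16/Dmkn cells of library 1 and 4487 CPM in library 2, against 106 and 99.8 CPM in all other cells. Its level was thus alike in both libraries. Sbsn stood at 1056 and 758 CPM against 12.8 and 13 CPM, and Efemp1 at 799 and 580 CPM against 28.1 and 14.9 CPM. Dmkn stood at 920 CPM in library 1 and 234 CPM in library 2, against 6.3 and 3.5 CPM in all other cells. On a log2 scale Dmkn was 1.95 higher in library 1 than in library 2 among the members and 0.41 higher among all other cells. It had the widest gap between libraries of the 4 type genes.

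At the edges of the rule the levels graded. Cells with exactly 2 type genes had 2558 and 2335 CPM of Pi16 in libraries 1 and 2, and the 214 and 345 cells kept out for having only 1 type gene had 262 and 498 CPM. The 37 and 12 cells kept out for having 3 genes of the Smoc2 set had 3169 and 2794 CPM of Pi16, against 4740 and 4469 CPM in members with 2 of them. In library 1, 8 cells were kept out by a Ptprc UMI alone. Their Dmkn level was 1390 CPM. Another 8 were kept out in this way in library 2, at 650 CPM of Dmkn. With the cells kept out for having 3 genes of the Smoc2 set included, 66 and 27 cells carried both gene sets, meaning at least 2 type genes and at least 3 of the Smoc2 set. They had 2024 and 2018 CPM of Pi16 together with 1581 and 1350 CPM of Smoc2, and a median of 7004 and 4474 UMIs. The part of doublets in this class was not tested.

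**Figure D1:**
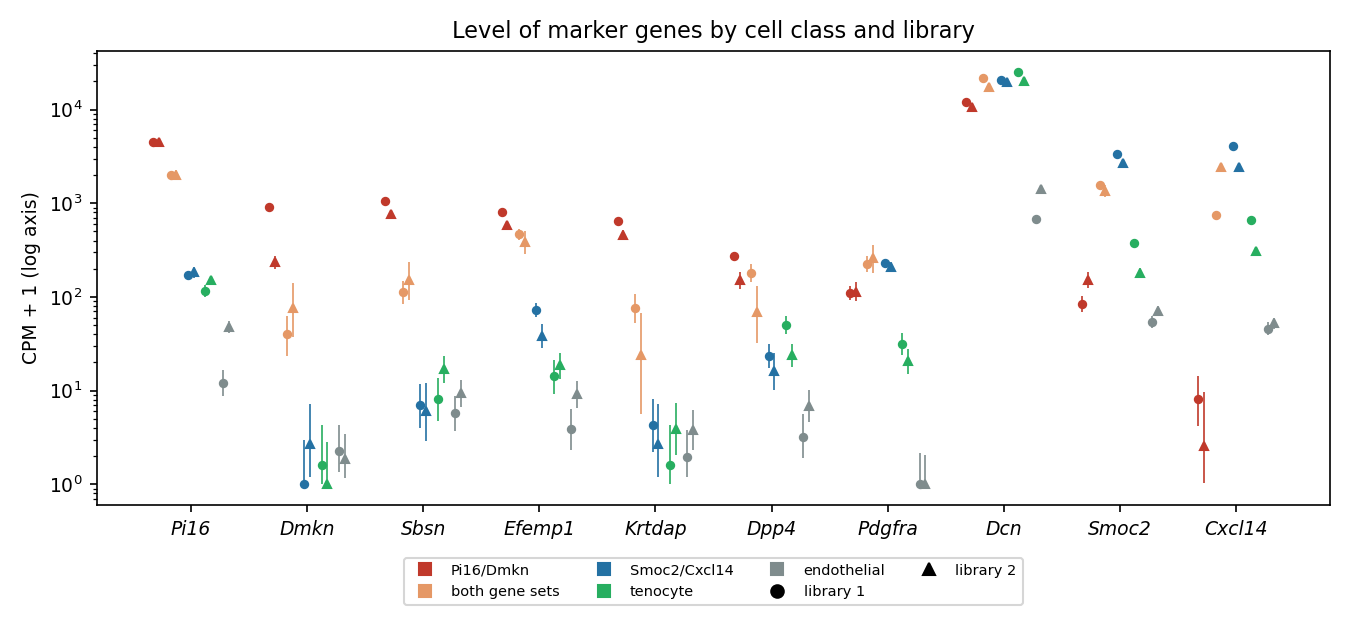
Level in CPM plus 1 (log axis) of marker genes in 5 cell classes, circles for library 1 and triangles for library 2, with bars for the exact 95% Poisson interval. Krtdap, which was not used to choose cells, lies near the type genes in Pi16/Dmkn cells (644 and 459 CPM) and below 5 CPM in Smoc2/Cxcl14 cells, while Dcn is high in all mesenchymal classes.

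The label of the group as FAPs was checked against general FAP genes. Dcn, encoding the collagen-binding proteoglycan decorin, was detected in 98.7% of members in library 1 and 98% in library 2. Its level was 12074 and 10730 CPM, against 679 and 1404 CPM in endothelial cells and 20614 and 19615 CPM in Smoc2/Cxcl14 cells. The latter are the 356 and 324 cells with UMIs of at least 3 genes of the Smoc2 set and at most 1 type gene, with the same limits on tendon genes and Ptprc. Tenocytes, taken as cells with at least 2 tendon genes, over 2 UMIs of them and no Ptprc UMI, had 25318 and 20296 CPM of Dcn. Dcn thus did not set the members apart from tenocytes. Ly6a was detected in 24.8% and 25.4% of tenocytes and Cd34 in 28.2% and 19.1%. Ly6a was detected in 97.8% and 96% of members and Cd34 in 91.5% and 87.3%. Pdgfra was detected in 41.3% and 32% of members, at 109 and 113 CPM, against 61.5% and 47.2% and 232 and 209 CPM in Smoc2/Cxcl14 cells. No endothelial cell held a Pdgfra UMI, by the rule that chose those cells. Dpp4, a surface peptidase that marks Pi16-positive fibroblasts in other organs, was detected in 69.1% and 38% of members and in 8.43% and 4.63% of Smoc2/Cxcl14 cells. In endothelial cells, which were sequenced less deeply, Dcn was detected in 35.8% and 41.4%, Ly6a in 84.3% and 76.5%, and Cd34 in 47.5% and 42.7%. Most members thus carried Dcn, Ly6a and Cd34, but most endothelial cells carried Ly6a too, and nearly all tenocytes carried Dcn.

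By the mean log2 ratio over both libraries, with 5 CPM added to both sides, the gene highest over all other cells was Krtdap. The rule had not used it. In library 1 alone the type gene Dmkn had the larger ratio (6.35 against 6.17). Krtdap, encoding keratinocyte differentiation-associated protein, a small secreted protein named for its place in the epidermis, stood at 644 CPM in members of library 1 (exact Poisson 95% interval 601 to 690) and 459 CPM in library 2 (408 to 514). All other cells had 4.04 and 2.76 CPM, and Smoc2/Cxcl14 cells 3.25 and 1.7 CPM. Of all Krtdap UMIs, 91.8% in library 1 and 87.8% in library 2 lay in the Pi16/Dmkn cells, a larger share than for Pi16 itself (74.8% and 66.1%). Krtdap was detected in 89 of 223 and 46 of 150 members. It was detected in 0.218% and 0.59% of endothelial cells. Of 15 epidermal genes listed, 8 were at 0 in the members or not listed in at least 1 table, among them Krt1, Krt5, Krt14, Cdh1 and Lor. Of the 4 that passed the level filter, Krtdap and Krt10 were at least 2-fold higher than in all other cells in both libraries, and Sfn and Ly6d at least 2-fold lower, with a median log2 ratio of -0.42. Krt10, a keratin of the suprabasal epidermis, stood at 41.8 and 38.7 CPM against 16.8 and 11.6 CPM. Sfn stood at 8.67 and 3.1 CPM against 34.9 and 44.7 CPM, and Ly6d at 19.7 and 10.8 CPM against 338 and 131 CPM. In library 1 the 32 Krt14 UMIs of cells with 2 type genes came from 1 cell, and so did their 52 Krt15 UMIs. Without members holding 2 or more markers of another cell type the mean log2 ratio of Krtdap against all other cells was 6.05, against 6.03 with them.

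Krtdap is the neighbour of Dmkn and Sbsn. On mouse chromosome 7 of GRCm38 (mm10) Sbsn spans chr7:30751471-30756134, Dmkn chr7:30763756-30781063 and Krtdap chr7:30787896-30791097, all 3 protein-coding genes on the plus strand. They follow each other with gaps of 7.62 and 6.83 kb and cover 39.6 kb in all. Within 100 kb on either side the annotation lists 21 genes, of which 9 were in both count tables. The only other gene there with a mean of at least 20 CPM was Tmem147, a membrane protein gene. It stood at 79.6 and 80.6 CPM in members and 59.2 and 47.1 CPM in all other cells, a difference of less than 2-fold. Sbsn and Dmkn are type genes, which the rule set high. Of the 3 adjacent genes only Krtdap stood high without having been used by the rule, and Tmem147 was the only neighbour to compare. An annotated transcript of Tmem147os overlaps Sbsn on the same strand, and how reads in the overlap were assigned is not given in the sources used here. Pi16 lies elsewhere, at chr17:29317680-29330593, and Efemp1 at chr11:28853204-28926743, both on the plus strand.

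**Figure D2:**
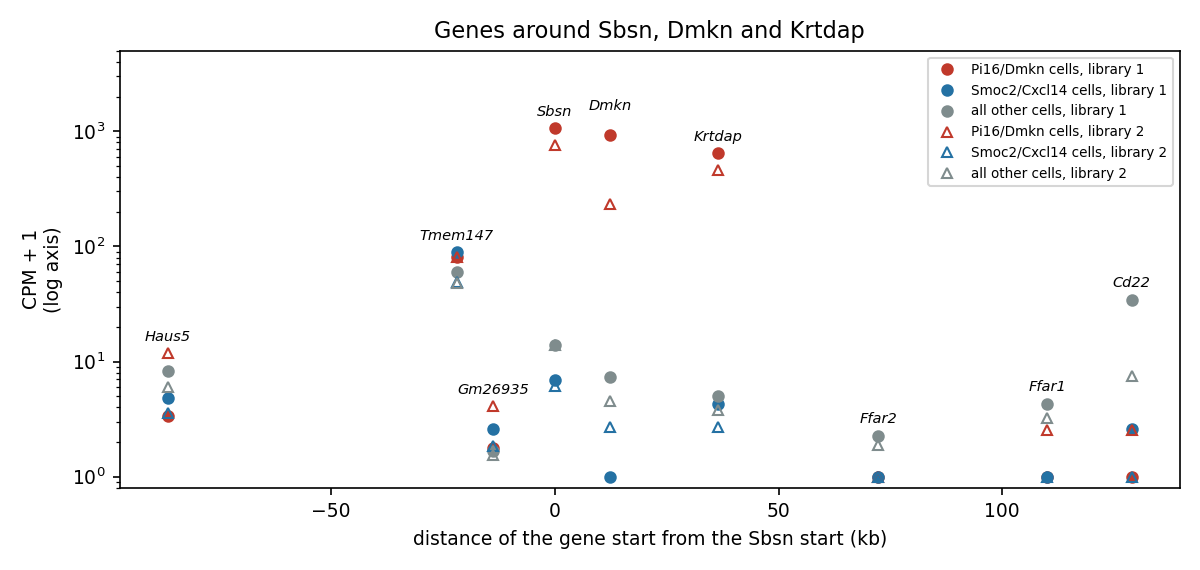
Level in CPM plus 1 (log axis) of the genes around Sbsn that were in both count tables, by distance of the gene start from the Sbsn start in kb, in 3 groups of cells (filled circles library 1, open triangles library 2). Sbsn, Dmkn and Krtdap lie above 200 CPM in Pi16/Dmkn cells and below 20 CPM in the other groups. Sbsn and Dmkn were used to choose these cells, and Krtdap was not. Tmem147 lies between 47.1 and 87.7 CPM in all.

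The windows at the starts of these 3 genes are shown because the genes stood high together in the same cells, Sbsn and Dmkn by the rule. The sequences are from RefSeq on GRCm38.p6, plus strand, from 250 bases before to 50 after the annotated start, written 5′ to 3′. They cover chr7:30751221-30751520 for Sbsn, chr7:30763506-30763805 and chr7:30776155-30776454 for an upstream and a downstream start of Dmkn, and chr7:30787655-30787954 for Krtdap. Capitals mark every match, on either strand, to TGANTCA (whose form TGAGTCA is the core element read by AP-1 factors), TGACGTCA (the cAMP response element), TATAAA (the TATA box), CCACCC (a Klf-type element) and GGGCGG (the GC box).
Sbsn: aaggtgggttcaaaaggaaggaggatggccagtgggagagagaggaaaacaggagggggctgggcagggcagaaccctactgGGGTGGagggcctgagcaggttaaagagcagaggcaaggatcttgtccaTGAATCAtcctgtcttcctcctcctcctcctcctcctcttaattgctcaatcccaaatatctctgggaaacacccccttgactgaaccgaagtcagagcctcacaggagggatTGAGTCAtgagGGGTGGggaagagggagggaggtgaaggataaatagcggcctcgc
Dmkn upstream start: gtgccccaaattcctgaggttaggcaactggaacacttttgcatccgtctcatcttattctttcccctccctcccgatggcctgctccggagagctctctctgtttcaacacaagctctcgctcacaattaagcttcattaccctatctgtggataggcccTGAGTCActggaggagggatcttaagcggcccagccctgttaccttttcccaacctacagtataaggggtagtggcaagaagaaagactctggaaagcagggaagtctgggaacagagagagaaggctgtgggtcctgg
Dmkn downstream start: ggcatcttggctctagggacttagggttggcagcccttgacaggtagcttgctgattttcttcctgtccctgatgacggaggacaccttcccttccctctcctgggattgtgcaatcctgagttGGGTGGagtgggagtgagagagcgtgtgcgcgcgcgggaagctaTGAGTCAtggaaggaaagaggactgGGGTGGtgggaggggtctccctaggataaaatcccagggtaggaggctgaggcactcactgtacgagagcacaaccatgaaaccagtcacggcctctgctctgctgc
Krtdap: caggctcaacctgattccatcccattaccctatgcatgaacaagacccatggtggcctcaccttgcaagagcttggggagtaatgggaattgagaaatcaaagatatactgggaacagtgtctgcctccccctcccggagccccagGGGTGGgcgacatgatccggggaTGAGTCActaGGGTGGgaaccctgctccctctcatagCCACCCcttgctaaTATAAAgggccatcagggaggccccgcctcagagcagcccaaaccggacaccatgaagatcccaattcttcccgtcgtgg

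TGANTCA was found in all 4 windows. In Sbsn it began at -119 (as TGAATCA) and at -6 (as TGAGTCA), counted from the start base as 0. As TGAGTCA it began at -89 at the upstream start of Dmkn, at -82 at the downstream start, and at -81 in Krtdap. Of 32851 mouse promoter windows of the same length 7.81% held the motif. Krtdap also held TATAAA at -30, as did 13.6% of windows somewhere. The Pi16 window, chr17:29318632-29318931, held only the Klf-type letters, which 31.5% of windows hold, and no TGANTCA. Its start site, chr17:29318882, lies inside the annotated gene, which begins at chr17:29317680. The sequence at that gene start was not searched. Efemp1, the other type gene off chromosome 7, also had a promoter window, which was not searched. TGACGTCA and GGGCGG, found in 1.79% and 35.7% of windows, were in none of the 4 windows shown. A match of letters says nothing of binding, and no binding data were used. Transcripts of the factors themselves are described further on with the immediate early genes.

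Krtdap and its neighbours were often detected in the same members. Dmkn and Sbsn helped to choose the cells, so splits by them are descriptions. In library 1, 74.4% of the 90 members with Dmkn also held Krtdap, against 16.5% of the 133 without Dmkn. In library 2 these shares were 73% of 37 and 16.8% of 113. Split by either neighbour, Krtdap was found in 55.1% of the 156 members with Dmkn or Sbsn in library 1 and in 4.48% of the 67 with neither. The shares in library 2 were 48.3% of 89 and 4.92% of 61. Members with neither could enter the group only by holding both Pi16 and Efemp1, so the 2 sides of this split met the rule in different ways. After each cell was thinned to 1000 UMIs, which evens out depth, Krtdap was found in 50% of members with Dmkn and 15.5% of those without in library 1. The thinned shares in library 2 were 63.2% and 16.9%. Dpp4, which lies on chromosome 2, was found in 74.4% of members with Dmkn and 65.4% without in library 1, and in 43.2% and 36.3% in library 2. After thinning these shares were 23.5% and 25.8% in library 1 and 15.8% and 11.5% in library 2, so their order turned in library 1. Genes on other chromosomes also split Krtdap after thinning. It was found in 29.8% of members with Pi16 and 3.12% without in library 1, and in 26% and 4.55% in library 2. For Efemp1 these shares were 33.9% and 17.6%, and 23.6% and 22.3%. Before thinning, library 2 ran the other way, at 30.6% and 33.3% for Pi16 and 27.4% and 46.2% for Efemp1. Among all other cells of library 1, Krtdap was found in 13.5% of the 37 with Dmkn and 0.289% of those without. In library 2 these shares were 18.5% of 27 and 0.278%.

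The members thus ranged from cells with Pi16 and Efemp1 alone to cells with the whole set, and other genes ranged with them. Krtdap stood at 11.8, 321 and 1366 CPM in cells with 2, 3 and 4 type genes in library 1 and at 205, 489 and 1083 CPM in library 2. Aldh1a3, which makes retinoic acid, stood at 52, 91.6 and 261 CPM in library 1 and at 43.4, 125 and 174 CPM in library 2. Igfbp5, which binds insulin-like growth factors, stood at 1332, 2721 and 3546 CPM and at 527, 1767 and 2226 CPM. The split counts genes that chose the cells, so it is a description too. All 3 genes stood higher with each further type gene in both libraries, but some intervals overlapped. Those of Aldh1a3 did so with 2 and 3 type genes in library 1 (32.6 to 78.7 and 61.8 to 131 CPM). In library 2 those with 3 and 4 did, for Aldh1a3 (77.6 to 192 and 110 to 261 CPM) and barely for Igfbp5. Pdgfra stood at 139 and 104 CPM with 2 and 4 type genes in library 1 and at 145 and 75.7 CPM in library 2. Mfap5, a microfibril protein gene, stood at 2329 and 3467 CPM in cells with 2 and 4 type genes in library 1 and at 1904 and 3741 CPM in library 2. Bgn, encoding the proteoglycan biglycan, ran the other way, at 241 CPM with 2 type genes and 17.4 CPM with 4 in library 1, and at 205 and 30.3 CPM in library 2. Sparcl1, a matricellular protein gene, did so too, at 92.1 and 5.79 CPM in library 1 and 127 and 7.57 CPM in library 2. Dcn hardly differed, at 13132 and 11606 CPM in library 1 and 10849 and 10246 CPM in library 2. Depth moved with this split: the median was 5085, 5538 and 6957 UMIs in cells with 2, 3 and 4 type genes in library 1 and 4266, 4347 and 4753 in library 2. Its part in the split was not tested.

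**Figure D3:**
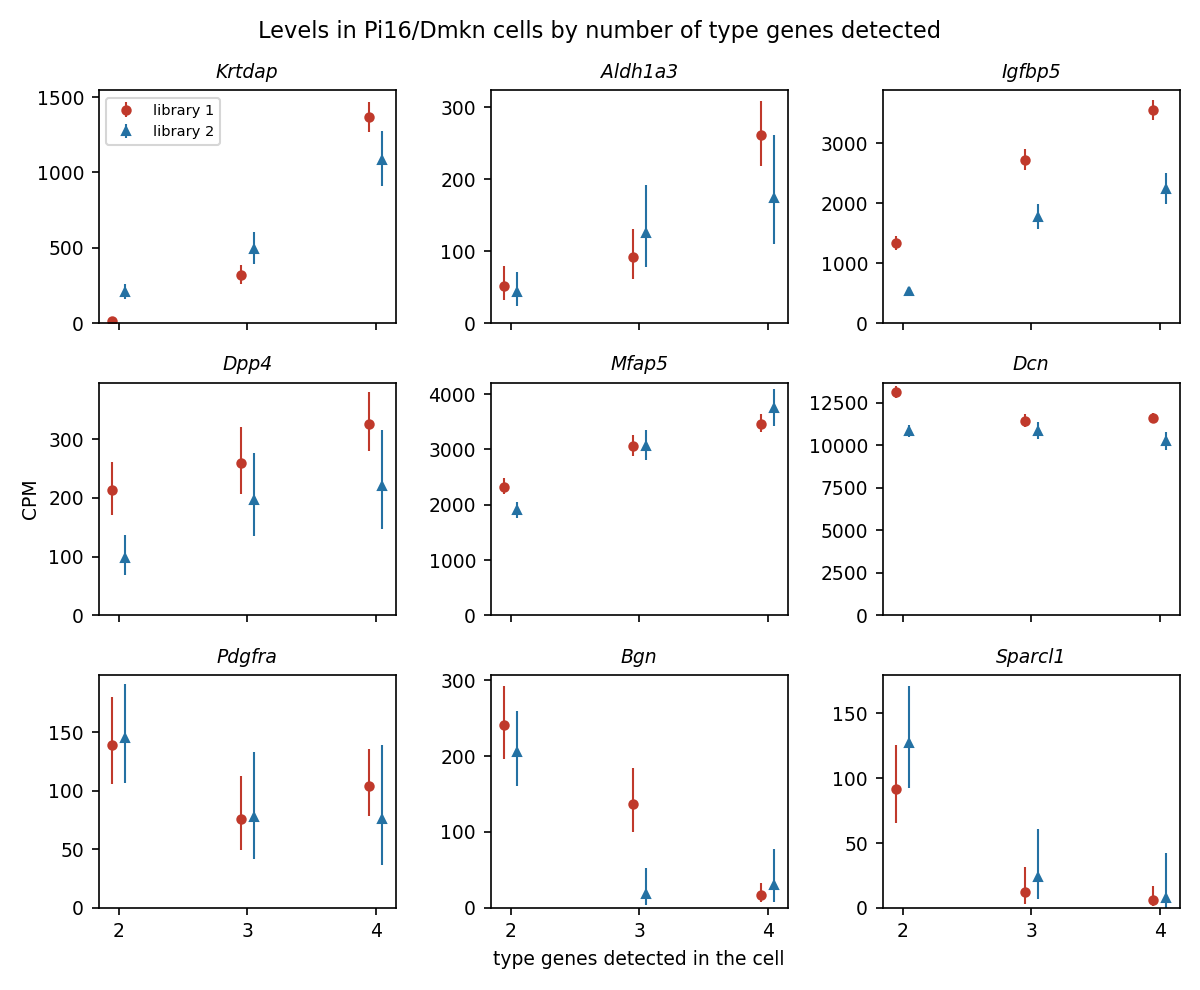
Level in CPM of 9 genes in Pi16/Dmkn cells with 2, 3 or 4 type genes detected, by library, with bars for the exact 95% Poisson interval. Krtdap, Aldh1a3 and Igfbp5 are higher with more type genes (Krtdap from 11.8 to 1366 CPM in library 1), Bgn and Sparcl1 lower, and Dcn lies between 10246 and 13132 CPM throughout.

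Genes were next set against all other cells by the log2 ratio of CPM, with 5 CPM added to both sides. A gene is called here when it was at least 2-fold higher, or lower, in both libraries, among genes with a mean of at least 20 CPM. Of 4952 such genes 383 were called higher (7.73%) and 484 lower (9.77%), with a median log2 ratio of -0.05. Called on library 1 alone, 583 were higher and 733 lower, and on library 2 alone 488 and 686. Of the 25 genes with the largest mean ratios over both libraries, 4 are the type genes, set high by the rule, and Krtdap was the first. Pla1a, a phospholipase acting on phosphatidylserine, stood at 596 and 437 CPM against 27.2 and 12 CPM. Efhd1, a calcium-binding protein gene of mitochondria, stood at 301 and 257 CPM against 11.3 and 8.21 CPM. Smpd3, a neutral sphingomyelinase, stood at 251 and 124 CPM against 7.02 and 4.04 CPM. These genes were low in both libraries as an average over all other cells. Smoc2/Cxcl14 cells had 81.7 and 47.7 CPM of Pla1a, 23.8 and 23 CPM of Efhd1, and 13 and 2.55 CPM of Smpd3. Cells with both gene sets had 402 and 144 CPM of Pla1a, 153 and 83.4 CPM of Efhd1, and 98.1 and 60.7 CPM of Smpd3.

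Many of the other leading genes encode secreted or surface proteins. Cd248, the fibroblast surface protein endosialin, stood at 452 and 360 CPM against 30 and 13.7 CPM in all other cells. Sema3c, a guidance ligand, stood at 467 and 374 CPM against 30.8 and 23.1 CPM. C3, the central complement protein, stood at 1537 and 1324 CPM against 140 and 76.1 CPM, while Smoc2/Cxcl14 cells had 475 and 217 CPM. Pcolce2, an enhancer of procollagen processing, was alike in both libraries, at 1037 and 1045 CPM against 83.3 and 76.7 CPM. Igfbp5 stood at 2594 CPM in library 1 but 1197 CPM in library 2, while all other cells had 156 and 140 CPM. Ptx3, a soluble pattern recognition protein, stood at 2880 and 2092 CPM against 246 and 207 CPM, while Smoc2/Cxcl14 cells had 893 and 882 CPM. Col14a1, Mfap5, Pcsk6, Wnt2, Nptx2, Adgrd1, Uchl1, Aldh1a3, Scara5, Cadm3 and Stmn4 completed the 25.

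Against the Smoc2/Cxcl14 cells, the other kind of FAP described here, 160 of 4659 genes were called higher (3.43%) and 190 lower (4.08%), with a median log2 ratio of 0.00. Called on library 1 alone, 257 were higher and 352 lower, and on library 2 alone 246 and 281. The ratio compares 2 kinds of cells of the same libraries at more like depth, a median of 5252 and 3600 UMIs in the Smoc2/Cxcl14 cells. The rules that chose these cells set the type genes apart in advance, since Smoc2/Cxcl14 cells held at most 1 of them. Dmkn was not detected in the Smoc2/Cxcl14 cells of library 1. Against a floor of 3 UMIs in that library its level in members was at least 567-fold higher. In library 2 Dmkn stood at 1.7 CPM in Smoc2/Cxcl14 cells. Pi16 was at 170 and 182 CPM in Smoc2/Cxcl14 cells, log2 ratios of 4.69 and 4.59. Car8, a carbonic anhydrase relative, stood at 160 and 164 CPM in members against 5.41 and 11.1 CPM, but all other cells had 51.3 and 37.5 CPM. Uchl1, a ubiquitin hydrolase best known from neurons, stood at 130 and 82.1 CPM against 2.71 and 4.25 CPM. Gap43, a growth cone protein gene, stood at 52 and 62 CPM against 0.541 and 0.851 CPM. The others among the 12 highest were Krtdap, Sbsn, Smpd3, Efemp1, Wnt2, Nptx2 and Aldh1a3.

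At the other end, Cxcl14 and Smoc2 and Col15a1 were set low by the rule. Of genes the rule did not use, Mgp, an inhibitor of calcification, stood at 31.5 and 279 CPM in members against 2575 and 2266 CPM in Smoc2/Cxcl14 cells. Its level in members was lower in library 1, as was that of 6 endothelial genes summed (29.2 and 180 CPM), whose part was not tested. Crispld2, a secreted glycoprotein gene, stood at 7.88 and 24.8 CPM against 510 and 415 CPM. Thbs1, a matricellular protein that can activate TGF-beta, stood at 23.6 and 52.7 CPM against 731 and 501 CPM. Apod, a lipid carrier, stood at 151 and 209 CPM against 1701 and 2566 CPM. Hsd11b1, which regenerates active glucocorticoid, stood at 30 and 17 CPM against 389 and 266 CPM. In each of these the members were lower in both libraries. Sparcl1, Mdk and Fbln7 were also among the 12 lowest.

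**Figure D4:**
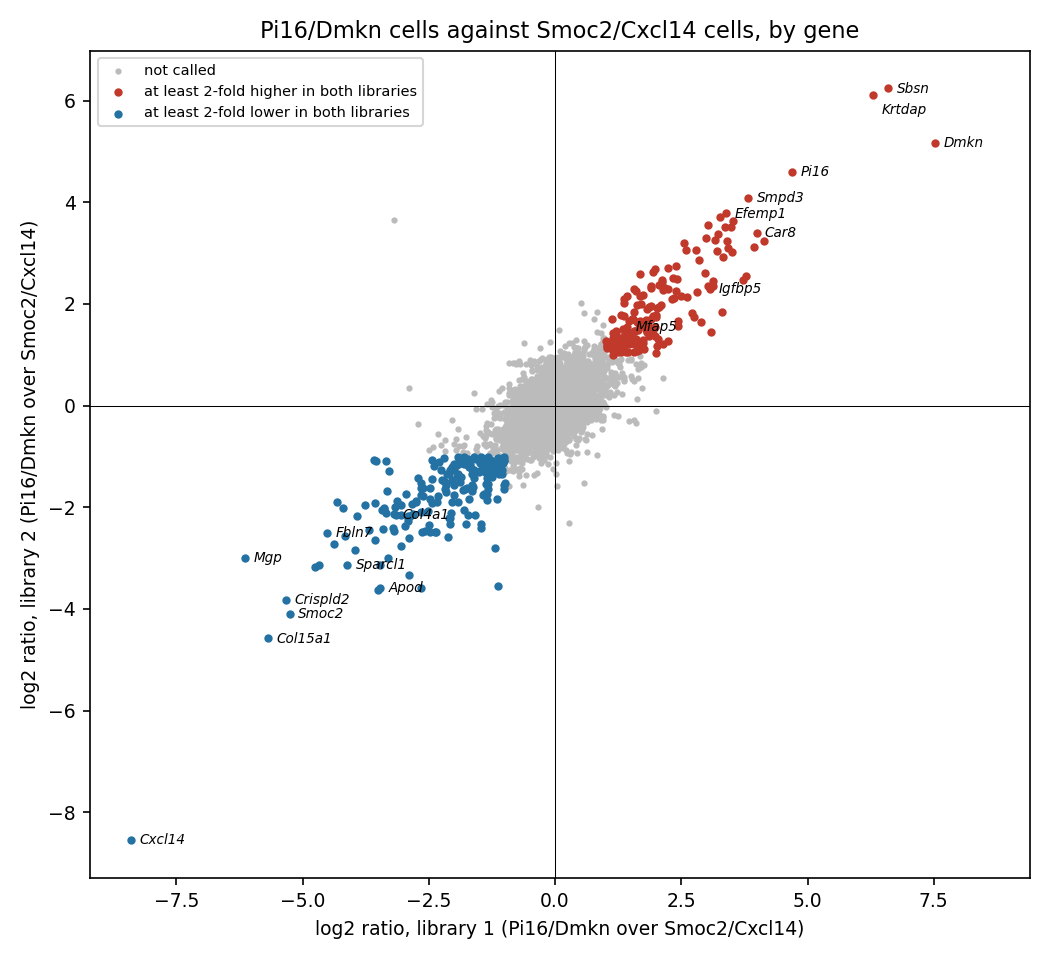
log2 ratio of each of 4659 genes in Pi16/Dmkn over Smoc2/Cxcl14 cells, library 1 on the horizontal and library 2 on the vertical axis. The 160 genes called higher (red) include Krtdap beside the type genes at upper right, and the 190 called lower (blue) run down to Cxcl14.

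Lists of genes by function were described by how many of their members passed the level filter and how many were called, leaving out the genes of the rule. All counts below stand beside the shares over all genes tested. These were 3.43% higher and 4.08% lower against Smoc2/Cxcl14 cells, and 7.73% and 9.77% against all other cells. A list with only 1 call in a direction is not set apart from these shares. The adventitial fibroblast list held Dpp4, Cd55, Sema3c and 21 other genes. All 24 passed, and 21 were called higher than in Smoc2/Cxcl14 cells and 0 lower, with a median log2 ratio of 2.31 (2.31 also with the 2 genes at 0 in a group set to their bound). Against all other cells 23 of 24 were higher, with a median of 3.16. Anxa3, a calcium-dependent membrane-binding protein gene, stood at 1095 and 980 CPM against 118 and 98.7 CPM in Smoc2/Cxcl14 cells. Dact2, an intracellular modulator of Wnt and TGF-beta signals, stood at 43.4 and 82.1 CPM against 0 and 1.7 CPM. Clec3b, Cd34 and Tppp3 of this list were not called against Smoc2/Cxcl14 cells. Of 19 passing genes of the parenchymal FAP list 17 were lower and 0 higher, with a median of -2.35. Against all other cells 4 of 15 were lower and 1 higher, with a median of -0.29. The list includes Lpl, Gdf10, Mme and Ccl11. Both lists were chosen with earlier results of these cells known, so their direction is not independent evidence.

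Of 20 general FAP genes, Ly6a and Prrx1 were called higher than in Smoc2/Cxcl14 cells and Mgp lower, with a median of -0.31. These are 2 and 1 of 20, beside 3.43% and 4.08% of all genes tested. Ly6a stood at 3341 and 1959 CPM in members against 1255 and 938 CPM. Prrx1, a limb mesenchyme transcription factor, stood at 249 and 170 CPM against 104 and 64.7 CPM. Against all other cells 10 of 19 were higher and Mgp lower.

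Matrix genes were split by kind, again beside 3.43% of all genes tested called higher and 4.08% lower than in Smoc2/Cxcl14 cells. In the basement membrane list 0 of 13 genes were higher and 5 lower than in Smoc2/Cxcl14 cells, namely Col4a1, Col4a2, Nid2, Hspg2 and Col18a1. Col4a1 and Col4a2 encode the main chains of type IV collagen. Col4a1 stood at 117 and 186 CPM against 1103 and 836 CPM, and Col4a2 at 52 and 55.8 CPM against 469 and 408 CPM. Against all other cells the list ran the other way, with 7 of 11 genes higher, among them the laminin genes Lama2, Lama4, Lamb1, Lamb2 and Lamc1, and Col4a2 lower (median 1.23). Among fibril-forming and associated collagens, Col14a1, which sits on fibril surfaces, was the only 1 of 12 called higher, at 552 and 277 CPM against 135 and 79.1 CPM. Col5a3, Col6a3 and Col8a1 were lower. In the elastic fibre list 3 of 18 were higher, the microfibril genes Fbn1 and Mfap5 and the coat protein gene Emilin2. Eln, Mfap4, Emilin1 and Ltbp4 were lower. Emilin2 stood at 332 and 245 CPM against 72.5 and 40 CPM, and its relative Emilin1 at 7.09 and 9.3 CPM against 70.9 and 43.4 CPM.

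Among 15 proteoglycan and hyaluronan genes, 4 were higher (Aspn, Has1, Has2 and Gpc6) and 2 lower (Bgn and Ecm2). Has1, a hyaluronan synthase, stood at 1935 and 1663 CPM against 885 and 509 CPM in Smoc2/Cxcl14 cells. Bgn stood at 123 and 121 CPM against 1264 and 1005 CPM, while its relative Dcn was not called. Of 17 proteases and inhibitors 4 were higher (Mmp23, Timp2, Pcolce2 and Plat) and 1 lower. Plat, tissue plasminogen activator, stood at 743 and 529 CPM against 201 and 185 CPM. The lower one was Mmp3, at 80.4 CPM in library 1 and 3.1 CPM in library 2, against 181 and 90.2 CPM.

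Signalling genes also divided. Of 8 Wnt ligands and modulators 3 were higher, Wnt2, Sfrp2 and Dact2, and Sfrp1 was lower. Sfrp2, a secreted modulator of Wnt signals, stood at 344 and 220 CPM in members against 33 and 22.1 CPM in Smoc2/Cxcl14 cells. Sfrp1 stood at 15 and 17 CPM against 77.9 and 46 CPM. The 2 related genes thus lay in opposite directions. Of 10 genes of the TGF-beta and BMP list 0 were higher and 4 lower, Bmp4, Bmp5, Gdf10 and Thbs1. In the IGF list Igfbp5 and Igfbp6 were higher, and Igf1, Igfbp3 and Igfbp7 lower, of 6. Igfbp6, which prefers IGF2, stood at 3557 and 4055 CPM against 1532 and 1493 CPM. Igfbp7 stood at 322 and 546 CPM against 2707 and 2438 CPM. Igf1, the growth factor itself, stood at 116 and 126 CPM against 571 and 307 CPM.

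Among 15 receptors 4 were higher and 1 lower. Il1r2, the decoy receptor for interleukin-1, stood at 156 and 146 CPM in members against 9.2 and 13.6 CPM in Smoc2/Cxcl14 cells. Ackr3, a scavenging receptor for Cxcl12, stood at 1040 and 815 CPM against 195 and 167 CPM. Its ligand gene Cxcl12 stood lower in members, at 87.5 and 60.4 CPM against 474 and 363 CPM. Tgfbr2 and the ferritin receptor gene Scara5 were higher too, and Lifr was lower. Of 14 chemokines and cytokines 1 was higher, Tnfsf9, and 3 lower, Cxcl12, Ccl11 and Lif. In the complement list C3 and Cd55 were higher, of 9. Cd55, which shields cells from complement, stood at 638 and 293 CPM against 83.9 and 35.7 CPM.

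Of 8 adipogenic genes 0 were higher and 4 lower, Lpl, Cd36, Plin2 and Apoe. Lpl, the lipase that frees fatty acids from lipoproteins, stood at 128 and 177 CPM in members against 818 and 619 CPM. The call of Cd36, at 13.4 and 27.9 CPM against 39.5 and 66.4 CPM, was lost when each cell was weighted alike. Among 13 transcription factors Prrx1, Klf4 and Creb5 were higher and Meox1 and Meox2 lower. Creb5, a CRE-binding factor known from joint cartilage and adventitial fibroblasts, stood at 395 and 234 CPM against 120 and 70.6 CPM. Klf4 stood at 1509 and 1076 CPM against 607 and 485 CPM. Meox1 stood at 1.58 and 7.75 CPM against 94.7 and 52.8 CPM.

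Part of the genes of fast responses were lower in the members than in Smoc2/Cxcl14 cells. Immediate early genes encode transcription factors that cells switch on quickly after a stimulus, and heat shock genes encode chaperones. Of 16 genes 10 were called lower than in Smoc2/Cxcl14 cells and 0 higher, with a median of -1.47. Fos stood at 749 and 687 CPM against 3440 and 1940 CPM, and Jun at 526 and 643 CPM against 3350 and 1995 CPM. Both encode AP-1 subunits. Junb, another subunit, stood at 2219 and 1951 CPM in members and was not called. Hspa1a, an inducible Hsp70 chaperone, stood at 858 and 702 CPM against 4904 and 2993 CPM. Against all other cells 5 of the 16 were lower, all of them heat shock genes, and no immediate early gene was called. Hspa1a stood at 6862 and 2453 CPM in all other cells.

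**Figure D5:**
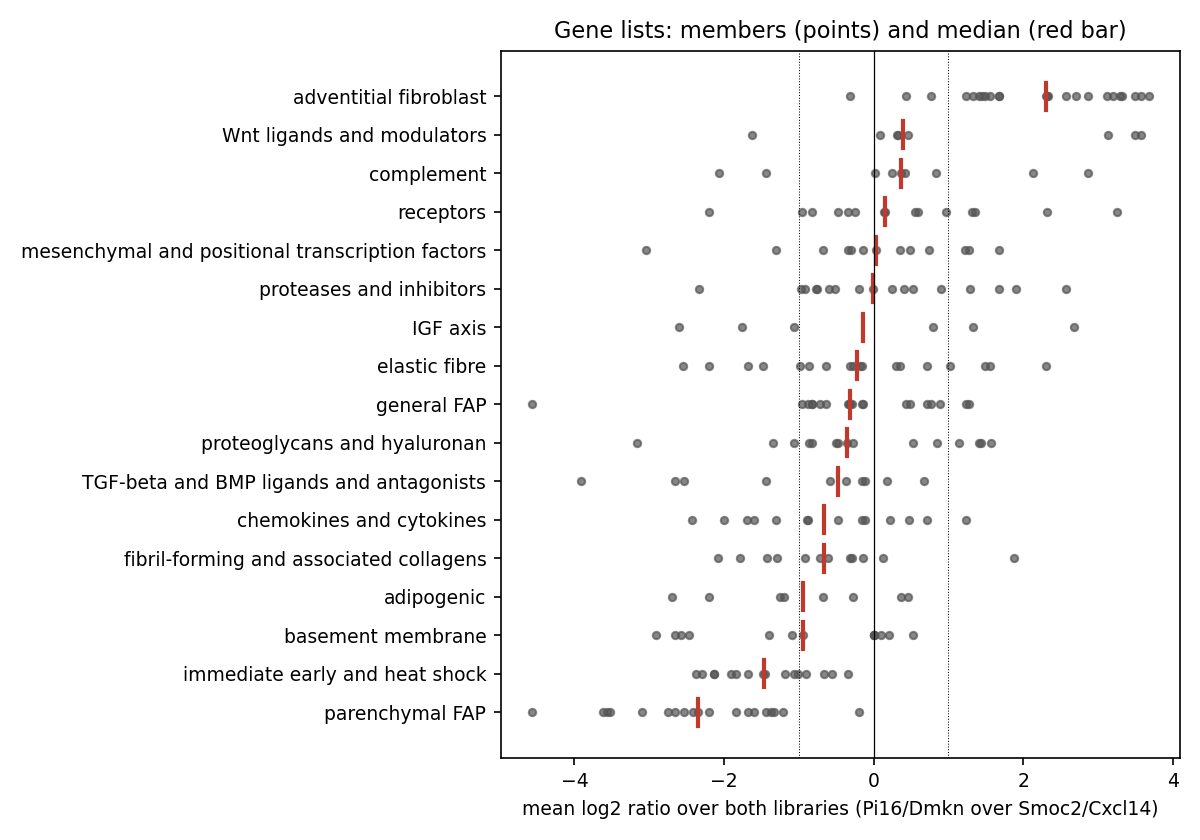
Mean log2 ratio over both libraries of Pi16/Dmkn over Smoc2/Cxcl14 cells for each passing gene of 17 lists (points), with the list's median (red bar) and dotted lines at 2-fold. The adventitial list lies highest (median 2.31) and the parenchymal FAP list lowest (median -2.35).

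Genes of other cell types were at low level in the members. Summed over 6 endothelial genes the members had 29.2 CPM in library 1 and 180 CPM in library 2, against 85.5 and 201 CPM in Smoc2/Cxcl14 cells. Myh11 of smooth muscle, Pax7 of muscle stem cells, and Sox10 of glia were at 0 in at least 1 library. The summed leukocyte genes were at 48.9 and 104 CPM. The 10 cell cycle genes summed to 71.7 and 77.5 CPM, with Mki67 at 0 in at least 1 library. Cells with 2 or more markers of another type numbered 17 of 223 in library 1 and 37 of 150 in library 2. Leaving them out gave 164 genes higher and 196 lower than in Smoc2/Cxcl14 cells. Of the mesothelial and perineurial lists 0 and 1 gene passed the level filter, and none was called.

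The most variable genes among the members included chemokines, metallothioneins and a heat shock gene. After thinning to 1000 UMIs, the variance over the mean was 10.6 in library 1 and 20.6 in library 2 for Ccl2, a monocyte attractant found in 48.9% and 40.3% of members with a highest value of 37 and 57 UMIs in 1 cell. The median over 1179 genes with a thinned mean of at least 0.1 UMIs was 1.02. Level was not matched in this comparison. The thinned means were 3.22 and 3.49 UMIs for Ccl2, 34.7 and 45.4 for Malat1, and 0.78 and 0.752 for Fos. The part of level in these ratios was not tested. Cxcl1, a neutrophil attractant, had ratios of 9.88 and 19.6, and Ccl7 7.41 and 9.97. The metallothionein genes Mt1 and Mt2, which bind metals, had ratios of 9.73 and 16.2 and of 9.16 and 12.1. Hspa1a had ratios of 8.51 and 6.46, in 30.9% and 28.9% of members, and Fos 6.43 and 6.16, in 27.4% and 24.8%. Malat1, Gsn and Cxcl2 completed the 10 most variable genes. None of these 10 was a type gene. Ccl2 as a mean level was not called against Smoc2/Cxcl14 cells, at 3449 and 3460 CPM against 2599 and 2398 CPM.

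The sorted bulk libraries, which played no part in choosing cells or genes, were read for the 25 leading genes. Values are FPKM, which scale fragments to transcript length and library size. The sort took Sca1-negative cells, but the Sca1 gene Ly6a stood at 9.51, 15.9 and 19.9 FPKM in fresh SMMC against 0.465 and 0.688 FPKM in MuSC (log2 change 3.30, SE 0.43, limma adjusted p = 3.1e-05). Other genes of FAPs moved with it. Dcn stood at 3528, 2613 and 1819 FPKM against 6.43 and 3.20 FPKM (limma adjusted p = 2.0e-06). Dpp4 stood at 79.2, 37.4 and 37.7 FPKM against 0.759 and 0.235 FPKM (limma adjusted p = 2.6e-07), and Pdgfra was higher too (limma adjusted p = 2.7e-04). The groups did not overlap for Ly6a, Dcn or Dpp4, and the part of FAPs among the sorted cells in the values of the leading genes was not tested. Of the 25 genes 20 passed the level filter. By limma at an adjusted p under 0.05, 12 of these were higher and 1 lower in fresh SMMC than in MuSC. Among the higher ones Pi16, Efhd1, Col14a1 and Adgrd1 reached 1 FPKM only in fresh SMMC. The lower one, Sbsn, did so only in MuSC. These genes entered the test only through the group where they were high, so their calls are not independent of the filter. The counts and the median include them. Over all 13233 genes tested 41.7% were higher and 18.0% lower, and the median log2 change was 0.45 against 2.17 for the leading genes tested. In bulk, fewer cells of a type and less RNA per cell cannot be told apart.

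The 3 neighbours on chromosome 7 were not among the genes high in fresh SMMC. Krtdap was listed at 0, 0.0117 and 0 FPKM in the fresh SMMC libraries and Dmkn at 0.229, 0.0688 and 0. Sbsn was the 1 gene that was lower, at 0.741, 0.95 and 0.424 FPKM in fresh SMMC against 1.62 and 1.71 FPKM in MuSC (log2 change -0.66, SE 0.18, limma adjusted p = 0.00759). With either MuSC library left out Sbsn no longer passed the level filter. Pi16 stood at 6.11, 4.03 and 1.97 FPKM against 0.186 and 0.281 FPKM (log2 change 1.94, SE 0.28, limma adjusted p = 8.2e-05). The groups did not overlap for either gene. Cultured SMMC had at most 0.110 FPKM of Pi16 in any library. Mfap5 stood at 84.2, 76.6 and 67.7 FPKM in fresh SMMC against 0.643 and 0.467 FPKM in MuSC (log2 change 5.63, SE 0.64, limma adjusted p = 1.1e-05). Pla1a stood at 29.2, 51.9 and 72.9 FPKM against 0.0919 and 0.299 FPKM (log2 change 5.36, SE 0.38, limma adjusted p = 2.4e-07). C3 stood at 102, 50.5 and 87.7 FPKM in fresh SMMC against 9.80 and 11 FPKM in MuSC, and was listed at 0 in all 6 cultured libraries. The fresh SMMC thus carried part of the leading genes at high level and the Krtdap locus hardly at all. Igfbp5, Ptx3, Pcolce2, Scara5, Smpd3, Nptx2 and Uchl1 did not pass in either direction.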

How the data were processed

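The single-cell tables held UMI counts per gene and cell, as the authors deposited them, with 13884 genes in both. The bulk table held FPKM, per the file headers, as deposited by the authors. Per the submitters' processing notes, Cell Ranger 2.1.0 and 2.2.0, STAR 2.5.1b, Seurat 2.2 and 2.3.4, R 3.5.1, 3.4.3 and 3.3.1, SAMtools 1.3.1, HISAT2 2.1.0 and StringTie worked on mm10. Which tool made which table, the cell filters, the annotation and the handling of strand are not given in the sources used here. Another 4 bulk columns matched no sample and were not used.

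UMIs of the cells of a class were summed per library and scaled to CPM in Python 3.11.15. Ratios were log2((CPM + 5)/(CPM + 5)) among genes with a mean of at least 20 CPM in each library, and a gene was called at 2-fold or more in the same direction in both libraries. Intervals are exact (Poisson for levels, Clopper-Pearson for shares) at 95%. Doublets were sought with Scrublet in scanpy 1.11.5. Bulk genes reaching 1 FPKM in 2 or more libraries entered limma 3.58.1 in R 4.3.3 on log2(FPKM + 1), with an intensity trend, all 11 libraries in 1 fit, two-sided and with Benjamini-Hochberg adjustment over 13233 genes. Fold changes on this scale are understated for low genes. FPKM keep no read counts, so bulk depth is unknown. The calling rule and the limma fit were tested on simulated data.

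Named genes were the genes of the rule, the 25 largest ratios against all other cells, the 12 highest and 12 lowest against Smoc2/Cxcl14 cells (each at 50 CPM or more in the higher class in both libraries), up to 4 called genes per list, and the 10 most variable. Predicted, ribosomal protein, mitochondrial and haemoglobin genes were left out. A few genes picked in this way are not reported here. A few genes set beside these (Dpp4, Anxa3, Krt10, Klf4, Junb, Tmem147, Sfn, Ly6d and the laminin genes) and the motifs were chosen after values were seen. The members, the 28 gene lists and the tests were chosen with earlier results of these data known. Positions come from GENCODE M21 (GRCm38), and all of Sbsn, Dmkn, Krtdap and Pi16 matched a RefSeq promoter window.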

Additional observations from a re-analysis of the deposited data

How the results depend on the processing

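The share of Pi16/Dmkn cells, 3.01% over both libraries, was 1.66% with at least 3 type genes, 2.12% with at most 1 gene of the Smoc2 set, 2.19% with cells thinned to 1000 UMIs (library 2 then had 1.49% in place of 2.38%), and ran from 2.38% to 3.63% with 1 library left out. Against all other cells, a minimum of 5 CPM gave 1045 genes lower, and a minimum of 50 CPM 235 higher and 219 lower. With 1 library left out, 488 to 583 were higher and 686 to 733 lower, since 1 library then makes the call. TMM scaling moved the median ratio from -0.05 to 0.09 and the share of called genes that were higher from 44.2% to 51.1%. It was 51.8% at 50 CPM and 33.5% at 5 CPM. Against Smoc2/Cxcl14 cells, a minimum of 5 CPM gave 334 lower, and 50 CPM gave 103 higher and 105 lower. With 1 library left out, 246 to 257 were higher and 281 to 352 lower. No result reversed. The 25 leading genes kept their call against all other cells in each of the 271 values the alternatives gave. Wnt2, Nptx2, Uchl1 and Aldh1a3 had no value at a minimum of 50 CPM. Against Smoc2/Cxcl14 cells, 7 of 955 values for 89 genes lost the call: Scara5 (1.21), Meox2 (-1.21) and Cd36 (-1.10) with each cell weighted alike, Cd36 (-0.97) without called doublets, Mmp3 (-2.32) with at most 1 gene of the Smoc2 set, and Meox2 (-1.17) and Plin2 (-1.05) without cells holding markers of another type, a setting added after the data were seen. Of 418 counts over lists 22 moved by more than 1.5 times; the cause was not tested.

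In bulk, the leading genes numbered 7 higher and 0 lower with at least 10 FPKM, and 2 were lower after quantile normalization, which moved the median of all genes from 0.45 to -0.04. With 1 library left out, 12 to 14 were higher and 0 to 2 lower. Fresh SMMC and MuSC share replicate numbers 1 and 2, and the deviations of same-numbered libraries correlated at 0.12 and 0.01. With only 2 MuSC libraries their deviations mirror each other, so these values cannot decide whether the numbers pair the samples. With the replicate block 14 were higher and 1 lower (Nptx2 and Uchl1 then passed).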
